A study of Mus musculus with 122 samples.

Results

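The heat shock chaperone genes examined here are Hspa1a, Hspa1b, Hspa8, Hsph1, Dnaja1, Dnajb1, Hsp90aa1, Hsp90ab1, Hspb1 and Hsf1, that is 10 genes of the 52459 listed in a table of normalized RNA-seq counts. They were chosen by name as a family, and partly on these data: Hspa1a was picked because it was among the strongest rises in the CLC line after Dox (CLC D), so the comparison of CLC D with CLC U is given below only as a description. All 10 genes were found in the table and all 10 passed the minimum mean of 10 normalized counts in each of the 4 lines.

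The cells are E14Tg2a mouse embryonic stem cells (mESCs), a line grown here without feeder cells in serum with LIF and inhibitors of GSK3 and MEK. Every line carried Ctcf fused to an auxin-inducible degron and eGFP on both alleles, the auxin receptor Tir1 at Rosa26, and a Dox-inducible FLAG-tagged transgene at Tigre, and each line was a selected clone, so a property of the clone and of its transgene cannot be told apart. The transgene was CTCF, its paralog CTCFL, LCL (the zinc fingers of CTCF between the termini of CTCFL) or CLC (the zinc fingers of CTCFL between the termini of CTCF), and the lines of 2 further chimeras of the same parts, CLL and LLC, enter here by ChIP-seq alone. Cells were untreated (U), given IAA (auxin, 500 µM), which degrades the endogenous CTCF (I), given Dox (1 µg/ml), which is meant to induce the transgene (D), or given both (ID). The labels give 24 h of treatment for the RNA-seq libraries, whereas the treatment protocol gives a longer time. There were 38 RNA-seq libraries: 11 of the CTCF line (2 U, 3 I, 3 D and 3 ID), 11 of the CTCFL line (3 U, 3 I, 3 D and 2 ID), and 8 each of the LCL and CLC lines (2 per condition). The names given to the LCL and CLC RNA-seq libraries hold the tag 2i, which those of the CTCF and CTCFL libraries lack. The labels do not explain this tag, so it cannot be told apart from the line. The RNA is of whole cultures, in which fewer cells of a type and less RNA per cell cannot be told apart. Nothing in the labels says that replicates came from separate cultures, so the p-values measure the spread between these libraries, which may be technical.

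Heat shock proteins are chaperones, which keep other proteins folded, refold damaged ones or pass them on for degradation. HSP70 proteins bind unfolded stretches, J-domain proteins (HSP40) deliver the clients and set off ATP hydrolysis, HSP110 proteins exchange the nucleotide, and HSP90 proteins act later on kinases, receptors and other clients. The transcription factor HSF1 is held inactive by chaperones in unstressed cells and, on release, binds heat shock elements, inverted repeats of the unit GAA, in the promoters of Hspa1a, Hspa1b, Hsph1, Dnajb1, Hspb1 and other genes. Embryonic stem cells hold high levels of the chaperones Hspa8, Hsp90aa1 and Hsp90ab1 and low levels of the inducible pair Hspa1a and Hspa1b.

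Depth, as reads recovered from the table, ranged from 6847072 (CTCFL D replicate 3) to 49716771 with a median of 26013021 over 36 libraries, and the 10 genes together took between 1.31% and 1.87% of a library. Behind the lowest gene, Hspa1a, stood between 14 and 194 reads per library, and behind Hspa1b between 70 and 681, so counting error is a larger part of their values than of the other genes, each of which had at least 254 reads in every library. The markers of naive embryonic stem cells were high in every library (8 genes, summed level 60621 to 231404 normalized counts), and the 6 feeder fibroblast markers summed to at most 1031.3 with Lum or Dcn listed at 0 in every group but CTCF I. The naive sum was lower in I than in U in every line, as in CLC (155635 to 164645 against 230103 to 231404). The 6 primitive endoderm markers summed to 5844 to 7069 in CTCF and CTCFL U, and to 593.5 to 630.4 in LCL and CLC U. The 4 neural markers summed to between 925.1 and 6468, and the 4 primitive streak markers to between 124.3 and 472.4. The part of these differences in the results below was not tested. As a check of the labels, Ctcfl rose from 192.6-225.3 normalized counts in CTCFL U to 7569.5-9398 in CTCFL D, and was also higher in D than in U in the LCL and CLC lines. Ctcf did not rise in the libraries labelled CTCF D (3550-3850 against 4691-4712 in U) or CTCF ID (3910-4142), so these are called by their labels here. The paper does show the transgenic CTCF protein after Dox, by western blot and flow cytometry. FLAG ChIP-seq of this line gave 37167 regions with peaks in both replicates in D and 30335 in ID. The CLC U libraries differed from each other by little more than counting noise (chi-square per gene of 1.36, against 2.94 to 47.8 in all other pairs of replicates).

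Promoter sequences from RefSeq (GRCm38.p6) were at hand for 6 of the 10 genes: Hspa1a, Hspa1b, Hsph1, Dnaja1, Dnajb1 and Hspb1. Hspa8, Hsp90aa1, Hsp90ab1 and Hsf1 had no entry. The 150 bases before the start site are shown for Hspa1a, Hspa1b, Hspb1 and Hsph1, because the results turn on how alike the first pair is and on whether these promoters hold heat shock elements. Capitals mark elements of 2 units, GAANNTTC or TTCNNGAA, which read the same on either strand.
Hspa1a, chr17:34972157-34972306, minus strand: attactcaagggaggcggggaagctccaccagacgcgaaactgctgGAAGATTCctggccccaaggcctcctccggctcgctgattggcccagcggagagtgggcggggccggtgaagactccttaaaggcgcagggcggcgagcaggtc
Hspa1b, chr17:34959239-34959388, minus strand: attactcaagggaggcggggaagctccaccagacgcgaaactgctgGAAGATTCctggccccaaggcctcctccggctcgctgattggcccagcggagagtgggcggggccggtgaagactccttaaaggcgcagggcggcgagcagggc
Hspb1, chr5:135887769-135887918, plus strand: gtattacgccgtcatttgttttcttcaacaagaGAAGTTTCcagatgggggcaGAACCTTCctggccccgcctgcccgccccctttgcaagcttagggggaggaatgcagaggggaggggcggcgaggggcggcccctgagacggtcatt
Hsph1, chr5:149636316-149636465, minus strand: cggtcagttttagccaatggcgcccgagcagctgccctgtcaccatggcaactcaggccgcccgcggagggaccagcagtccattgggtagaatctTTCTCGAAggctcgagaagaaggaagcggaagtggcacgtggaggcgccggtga

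The Hspa1a and Hspa1b promoters were identical at 149 of the 150 bases shown and at 247 of the 250 bases before the start site. Each held 1 element of 2 units, at the same place, from position -104 to -97 relative to the start site. Hspb1 held 2 such elements, and Hsph1 held 3 within its window of 300 bases, of which 1 is shown and the other pair overlap after the start site as an element of 3 units, TTCTGGAAAGTTC. Dnaja1 held 1 in the first of its 3 windows and Dnajb1 held none in either of its windows. Among all 32851 promoter windows of this length, 15.1% held at least 1 element of 2 units, 1.96% at least 2, and 0.603% an element of 3 units (GAANNTTCNNGAA or TTCNNGAANNTTC, which holds 2 overlapping elements of 2 units). A match is a description of letters in this window.

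Per kb of exon in the untreated CTCF line, the level was highest for Hsp90ab1 (60692 ± 1288 normalized counts per kb, SD, n = 2) and Hsp90aa1 (28683 ± 931), the beta and alpha forms of cytosolic HSP90, followed by Hspa8 (7736 ± 229), the constitutive HSP70. Hspb1, the small heat shock protein HSP27, stood at 1347 ± 254 per kb, and the J-domain gene Dnajb1 (539 ± 3.43), the HSP110 gene Hsph1 (451 ± 41.6) and the J-domain gene Dnaja1 (336 ± 11.7) followed. The factor Hsf1 stood at 121 ± 9.70 per kb, Hspa1b at 48.7 ± 4.16 and Hspa1a at 12.7 ± 3.27. No neighbours in this order overlapped in the 2 CTCF U libraries. The untreated lines, which are separate clones and of which LCL and CLC alone hold the tag 2i, stood at different levels, with no test made. Hsph1 was between 1749 and 1768 per kb in CLC U against 421 to 480 in CTCF U, and Hspb1 was between 4629 and 4744 against 1168 to 1527. Hspa1a went the other way, with 5.38 to 10.2 per kb in the LCL and CLC lines and 10.4 to 25.8 in the CTCF and CTCFL lines.

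Hspa1a (ENSMUSG00000091971, chr17:34969190-34972156, minus strand) and Hspa1b (ENSMUSG00000090877, chr17:34956436-34959238, minus strand) encode the same kind of stress-inducible HSP70 and lie side by side. Of the 50-base words of the Hspa1a transcript, 58.8% also occur in Hspa1b. How reads that fit both were counted is not given in the sources used here. The split between them is therefore uncertain, and their sum is given as well. Words shared with other genes made up 50.1% in Hspb1 (mostly Hsp25-ps1), 47.5% in Hsp90aa1 (mostly Gm12346), 39.4% in Hspa8 (mostly Gm15459) and 20.6% in Dnaja1. The share was at most 3.44% in Hsp90ab1, Dnajb1, Hsph1 and Hsf1. Levels of the genes with shared words, also per kb, rest on the same unknown counting.

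In the CTCF line Hspa1a had 44.7 and 30.9 normalized counts in U, 79.4, 115.9 and 129.9 in I, 88.4, 77.6 and 65.2 in D, and 120.6, 158.4 and 130.2 in ID. All treated libraries lay above both untreated ones. Hspa1a rose 2.81-fold in I against U (log2 difference 1.49 ± 0.24 SE on the log2(value + 1) scale, limma, adjusted p = 0.00026) and 3.57-fold in ID against U (1.84 ± 0.24, adjusted p = 3.00e-05). In D against U it was 1.02 ± 0.24 higher on the log2 scale, which did not pass the threshold of 0.01 with limma (adjusted p = 0.0152) but did with DESeq2 (adjusted p = 0.00576). ID and I did not differ past the threshold (0.35 ± 0.22, limma, adjusted p = 0.226).

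In the CTCFL line the spread was wide, with 55.2, 57.3 and 76.6 normalized counts of Hspa1a in U, 63.4, 85.8 and 88.7 in I, 138.1, 102.2 and 67.4 in D, and 119.0 and 91.5 in ID. The I and D libraries overlapped with U, and only the ID libraries lay clear of them. None of its comparisons passed the threshold with limma, the largest being ID against U (0.73 ± 0.33, adjusted p = 0.0638). With Hspa1a and Hspa1b summed, the pair passed in I (0.52 ± 0.14, adjusted p = 0.00578), D (0.64 ± 0.14, adjusted p = 0.00136) and ID (0.60 ± 0.16, adjusted p = 0.00307) against U in that line.

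In the LCL line Hspa1a had 15.96 and 24.7 normalized counts in U, 74.0 and 48.5 in I, 55.9 and 52.01 in D, and 67.1 and 89.0 in ID. No treated library overlapped with U. Hspa1a rose 2.92-fold in I (1.55 ± 0.36, limma, adjusted p = 0.00165), 2.63-fold in D (1.40 ± 0.36, adjusted p = 0.00816) and 3.75-fold in ID (1.91 ± 0.36, adjusted p = 0.000164) against U. The ID call held when any of the 4 libraries was left out. The I call was lost without U replicate 1 or I replicate 1 (adjusted p = 0.0259 and 0.0326) and without a filter on low values (0.0114), and the D call without U replicate 1 or either D library (adjusted p between 0.0582 and 0.0970), without that filter (0.0414), with the 2 groups alone (0.0121), with edgeR (0.0134) and with the pair summed (0.0108).

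In the CLC line Hspa1a had 30.4 and 27.3 normalized counts in U, 93.9 and 119.6 in I, 161.8 and 153.6 in D, and 60.9 and 62.9 in ID. The D libraries were the highest of the line, and the level with both treatments was below that with either one. Hspa1a rose 3.59-fold in I against U (1.84 ± 0.21, limma, adjusted p = 0.000268), in a comparison that shares the U libraries with the contrast used to choose the gene, as do all comparisons with CLC U. In ID against U it was 2.11-fold higher (1.08 ± 0.21, adjusted p = 0.0062), a call that was lost when any of the 4 libraries was left out (adjusted p between 0.0294 and 0.0585), without the low filter (0.0159), with a replicate block (0.0143), with the 2 groups alone (0.0119) and with the pair summed (0.0524). In D against U the log2 difference was 2.41, a value that chose the gene and is given without a test. ID was 0.77 ± 0.21 lower than I on the log2 scale, short of the threshold (adjusted p = 0.0423).

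Over all 16 groups the mean of Hspa1a was highest in CLC D (157.7 ± 5.82 normalized counts, SD, n = 2). The gene was picked for its rise in that group, so this place is only a description. Next came CTCF ID (136.4 ± 19.7, n = 3), whose highest library, 158.4, lay within the range of CLC D. CTCF I (108.4 ± 26.1, n = 3), CLC I (106.8 ± 18.2, n = 2), CTCFL ID (105.3 ± 19.5, n = 2) and CTCFL D (102.6 ± 35.4, n = 3) followed and overlapped with one another. The lowest means were those of CTCF U (37.8 ± 9.71, n = 2), CLC U (28.8 ± 2.19, n = 2) and LCL U (20.3 ± 6.18, n = 2).

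Hspa1b moved with less scatter. In the CTCF line it had 144.6 and 128.2 normalized counts in U, 303.0, 335.1 and 357.9 in I, 156.8, 143.4 and 178.1 in D, and 278.5, 289.8 and 302.7 in ID. The I and ID libraries were all clear of U, while D overlapped with it. Hspa1b rose 2.42-fold in I (1.28 ± 0.13, limma, adjusted p = 4.63e-06) and 2.12-fold in ID (1.09 ± 0.13, adjusted p = 1.27e-05) against U, and was 0.22 ± 0.13 higher in D (adjusted p = 0.254).

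In the CTCFL line Hspa1b had 191.2, 161.1 and 164.9 normalized counts in U, 270.4, 222.6 and 287.8 in I, 284.2, 256.5 and 262.2 in D, and 267.5 and 240.2 in ID. All treated libraries were above U and overlapped with each other. It rose 1.502-fold in I (0.59 ± 0.16, limma, adjusted p = 0.00548) and 1.55-fold in D (0.63 ± 0.16, adjusted p = 0.00373), and ID against U fell just short (0.56 ± 0.18, adjusted p = 0.0116). The I call was lost without U replicate 2 or 3 or I replicate 1 or 3 (adjusted p between 0.0208 and 0.0313), and the D call without U replicate 2 or 3 or D replicate 1 (0.0150 to 0.0185).

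In the LCL line Hspa1b had 188.1 and 203.8 normalized counts in U, 396.6 and 476.4 in I, 279.5 and 260.1 in D, and 280.2 and 344.6 in ID. It rose 2.21-fold in I (1.15 ± 0.16, limma, adjusted p = 1.24e-05) and 1.58-fold in ID (0.66 ± 0.16, adjusted p = 0.00215), the latter call being lost without U replicate 1 (0.0197) or ID replicate 2 (0.0292). In the CLC line it had 254.1 and 294.2 in U, 349.7 and 383.6 in I, 421.4 and 387.9 in D, and 346.1 and 314.5 in ID. These ranges did not overlap with U either, but neither I (0.42 ± 0.13, adjusted p = 0.0327) nor ID (0.27 ± 0.13, adjusted p = 0.155) passed the threshold with limma. With the pair summed, CLC I against U passed (0.64 ± 0.13, 1.56-fold, adjusted p = 0.00397), a smaller change than that of Hspa1a alone, and how far the 2 genes differ there cannot be told from a split of shared reads. The share of Hspa1a in the pair went from 8.49%-10.7% in CLC U to 21.2%-23.8% in I and 27.7%-28.4% in D. In the CTCFL line that share stayed between 19.0% and 32.7% in all conditions.

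**Figure D1:**
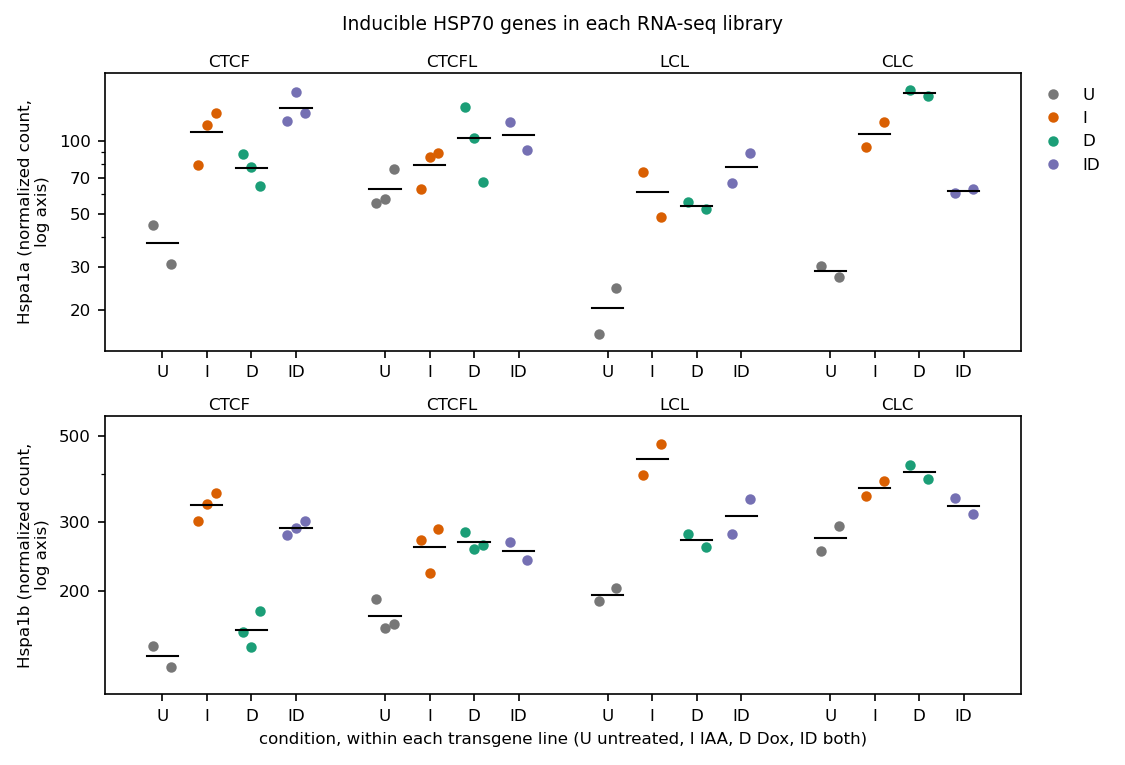
Normalized counts of Hspa1a (top) and Hspa1b (bottom) in each of the 38 RNA-seq libraries on a log axis, by line and condition, with points for libraries and bars for group means. The untreated libraries were the lowest of their line for Hspa1a in the CTCF, LCL and CLC lines. The 2 CLC D libraries (161.8 and 153.6), by whose rise the gene was picked, were the highest of that line.

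Hspa8 (ENSMUSG00000015656, chr9:40800984-40810087, plus strand), the constitutive HSP70 that also strips clathrin from vesicles, moved the other way. In the CTCFL line it had 43099, 43691 and 41799 normalized counts in U, 29615, 28937 and 33088 in I, 26796, 27122 and 26859 in D, and 20926 and 20866 in ID. The ranges of the 4 conditions did not overlap. Hspa8 fell by 0.49 ± 0.06 on the log2 scale in I (limma, adjusted p = 1.63e-06), by 0.67 ± 0.06 in D (adjusted p = 4.13e-08) and by 1.04 ± 0.07 in ID (adjusted p = 4.49e-11) against U, and by 0.55 ± 0.07 in ID against I (adjusted p = 2.19e-06). These calls held with limma when any library was left out and under its other settings but the fold threshold of the study, which only ID against U passed. In the tests on reads CTCFL ID was a single library and CTCFL I lacked replicate 2, so edgeR and DESeq2 are not counted here. The summed level of the naive stem cell markers was also lowest in CTCFL ID (60621 to 62659, against 121499 to 128429 in U); its part in the result was not tested.

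In the LCL line Hspa8 had 73675 and 66651 normalized counts in U, 49303 and 51627 in I, 50123 and 55015 in D, and 78702 and 69884 in ID. Of the ID libraries, the higher lay above both U libraries and the lower between them. Hspa8 fell by 0.47 ± 0.10 in I (limma, adjusted p = 0.00107) and by 0.42 ± 0.10 in D (adjusted p = 0.00704), and rose by 0.56 ± 0.10 in ID against I (adjusted p = 0.00021). The call in I was lost without U replicate 1 or either I library (adjusted p between 0.0112 and 0.0308) and without the low filter (0.0121), that in D without U replicate 1 or either D library (0.0215 to 0.0894), without the low filter (0.0489) and with the 2 groups alone (0.0189), and that in ID against I without I replicate 1 (0.0107).

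In the CLC line Hspa8 had 73753 and 74982 normalized counts in U, 43502 and 56343 in I, 61041 and 59429 in D, and 62583 and 54461 in ID. All treated libraries were below U. The fall in I was 0.59 ± 0.13 (limma, adjusted p = 0.00734) and was lost without either U library or I replicate 1 (adjusted p between 0.0113 and 0.0568), without the low filter (0.0228), with a replicate block (0.0168) and with the 2 groups alone (0.0254). ID against U was 0.35 ± 0.13 lower and did not pass (adjusted p = 0.0732). In the CTCF line, by contrast, I overlapped with U (31690 to 35349 against 32574 and 33969, log2 difference 0.00 ± 0.09, adjusted p = 0.997), and the ID libraries (25954 to 27371) were below both. The fall in ID against I was 0.31 ± 0.08 (adjusted p = 0.00774), a call lost without I replicate 2 or 3 or any ID library (adjusted p between 0.0109 and 0.0385), without the low filter (0.0209) and with a replicate block (0.0120).

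Hsph1 (ENSMUSG00000029657, chr5:149614287-149636376, minus strand) encodes HSP110, the nucleotide exchange factor of HSP70. It was called in 10 of the 15 tested comparisons, more than any other of the 10 genes, in 9 of them as lower. In the CTCFL line it had 4286, 3989 and 4202 normalized counts in U, 3874, 4051 and 4046 in I, 2602, 2877 and 2715 in D, and 2937 and 2761 in ID. The D and ID libraries lay apart from U and I, which overlapped. Hsph1 fell by 0.61 ± 0.07 in D (limma, adjusted p = 3.41e-07) and by 0.55 ± 0.07 in ID (adjusted p = 1.80e-06) against U, and by 0.49 ± 0.07 in ID against I (adjusted p = 1.78e-05), in all cases whichever library was left out.

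In the CLC line Hsph1 had 12708 and 12846 normalized counts in U, 8088 and 7620 in I, 7505 and 7631 in D, and 7354 and 8383 in ID. Every treated library was far below U. It fell by 0.70 ± 0.09 in I (limma, adjusted p = 0.000385) and by the same amount in ID (0.70 ± 0.09, adjusted p = 0.000813), the ID call being lost without U replicate 1 (0.0146) or 2 (0.0160). In the LCL line it had 9127 and 8028 in U, 9806 and 9658 in I, 5957 and 6363 in D, and 7425 and 6692 in ID. Here it fell by 0.48 ± 0.09 in D against U (adjusted p = 0.000853, lost without U replicate 1 or D replicate 1, adjusted p = 0.0182 and 0.0222) and by 0.47 ± 0.09 in ID against I (adjusted p = 0.000317).

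A rise of Hsph1 was called in the CTCF line alone, in I against U. It had 3062 and 3489 normalized counts in U, 4378, 4152 and 4213 in I, 2540, 2609 and 2454 in D, and 3448, 3524 and 3628 in ID. I was above and D below both U libraries. Hsph1 rose by 0.38 ± 0.07 in I (limma, adjusted p = 0.000793, lost without U replicate 1, 0.0201, and with the 2 groups alone, 0.0118), and it fell by 0.37 ± 0.07 in D (adjusted p = 0.00622) and by 0.27 ± 0.06 in ID against I (adjusted p = 0.00508). The D call was lost without either U library or D replicate 1 or 3 (adjusted p between 0.0113 and 0.107), without the low filter (0.0115), with a replicate block (0.0229) and with the 2 groups alone (0.0234). The ID against I call was lost without any of the 6 libraries (0.0111 to 0.0255), without the low filter (0.0108), with a replicate block (0.0110) and with edgeR (0.0110).

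Dnaja1 (ENSMUSG00000028410, chr4:40722150-40737149, plus strand) and Dnajb1 (ENSMUSG00000005483, chr8:83608193-83612653, plus strand) encode J-domain partners of HSP70, the first mostly constitutive and the second strongly heat-inducible. Among the CLC libraries Dnaja1 had 4299 and 4234 normalized counts in U, 2545 and 2537 in I, 2609 and 2440 in D, and 3635 and 3817 in ID. The I and D levels were alike and the ID level lay between them and U. It fell by 0.75 ± 0.08 in I against U (limma, adjusted p = 0.000167) and rose by 0.55 ± 0.08 in ID against I (adjusted p = 0.00355), the second call being lost without either ID library (0.0172 and 0.0312), with a replicate block (0.0137) and with the 2 groups alone (0.0636).

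In the LCL line the conditions lay further apart, and Dnaja1 had 4374 and 4208 normalized counts in U, 3172 and 3216 in I, 2583 and 2753 in D, and 5214 and 4544 in ID. ID was above every other library of the line. Dnaja1 fell by 0.43 ± 0.09 in I (limma, adjusted p = 0.000835, lost without either I library, 0.0123 and 0.0154) and by 0.69 ± 0.09 in D (adjusted p = 2.60e-05), and rose by 0.61 ± 0.09 in ID against I (adjusted p = 1.92e-05). Within the CTCFL line Dnaja1 had 3194 to 3304 in U, 3316 to 3782 in I, 2513 to 2667 in D, and 3074 and 3096 in ID. The fall in D, by 0.33 ± 0.07 (adjusted p = 0.000521), was its only call there. In the CTCF line it was 3269 to 3895 in I against 2974 and 2831 in U, a rise of 0.32 ± 0.09 (adjusted p = 0.00792) that was lost without either U library or I replicate 2 or 3 (adjusted p between 0.0259 and 0.0687) and under 6 of 9 other settings (0.0104 to 0.0345).

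Dnajb1 was higher in cells of the CTCF line given IAA, with 1733 and 1718 normalized counts in U, 2494, 2824 and 2923 in I, 1515, 1748 and 1965 in D, and 2761, 2731 and 2465 in ID. I and ID were clear of U, and D straddled it. It rose 1.59-fold in I (0.67 ± 0.10, limma, adjusted p = 0.000174) and 1.53-fold in ID (0.62 ± 0.10, adjusted p = 0.000227) against U. Within the LCL line Dnajb1 had 2851 and 2962 in U, 4646 and 4966 in I, 3660 and 3705 in D, and 4467 and 4168 in ID, all treated libraries above U. It rose 1.65-fold in I (0.73 ± 0.09, adjusted p = 1.33e-06) and 1.48-fold in ID (0.57 ± 0.09, adjusted p = 1.63e-05), and by 0.34 ± 0.09 in D (adjusted p = 0.0077), a call lost without any of the 4 libraries (0.0131 to 0.0807), without the low filter (0.0195) and with all lines in 1 fit (0.0256).

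Within the CTCFL line Dnajb1 went down with Dox: it had 1843, 1805 and 1659 normalized counts in U, 1959, 2036 and 2104 in I, 1350, 1109 and 1037 in D, and 1660 and 1579 in ID. It fell by 0.61 ± 0.09 in D (limma, adjusted p = 1.65e-05), whichever library was left out. Within the CLC line (3231 and 3074 in U, 3564 and 4239 in I, 3511 and 2963 in ID) no comparison passed the threshold. D there held 3534 and 3613.

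**Figure D2:**
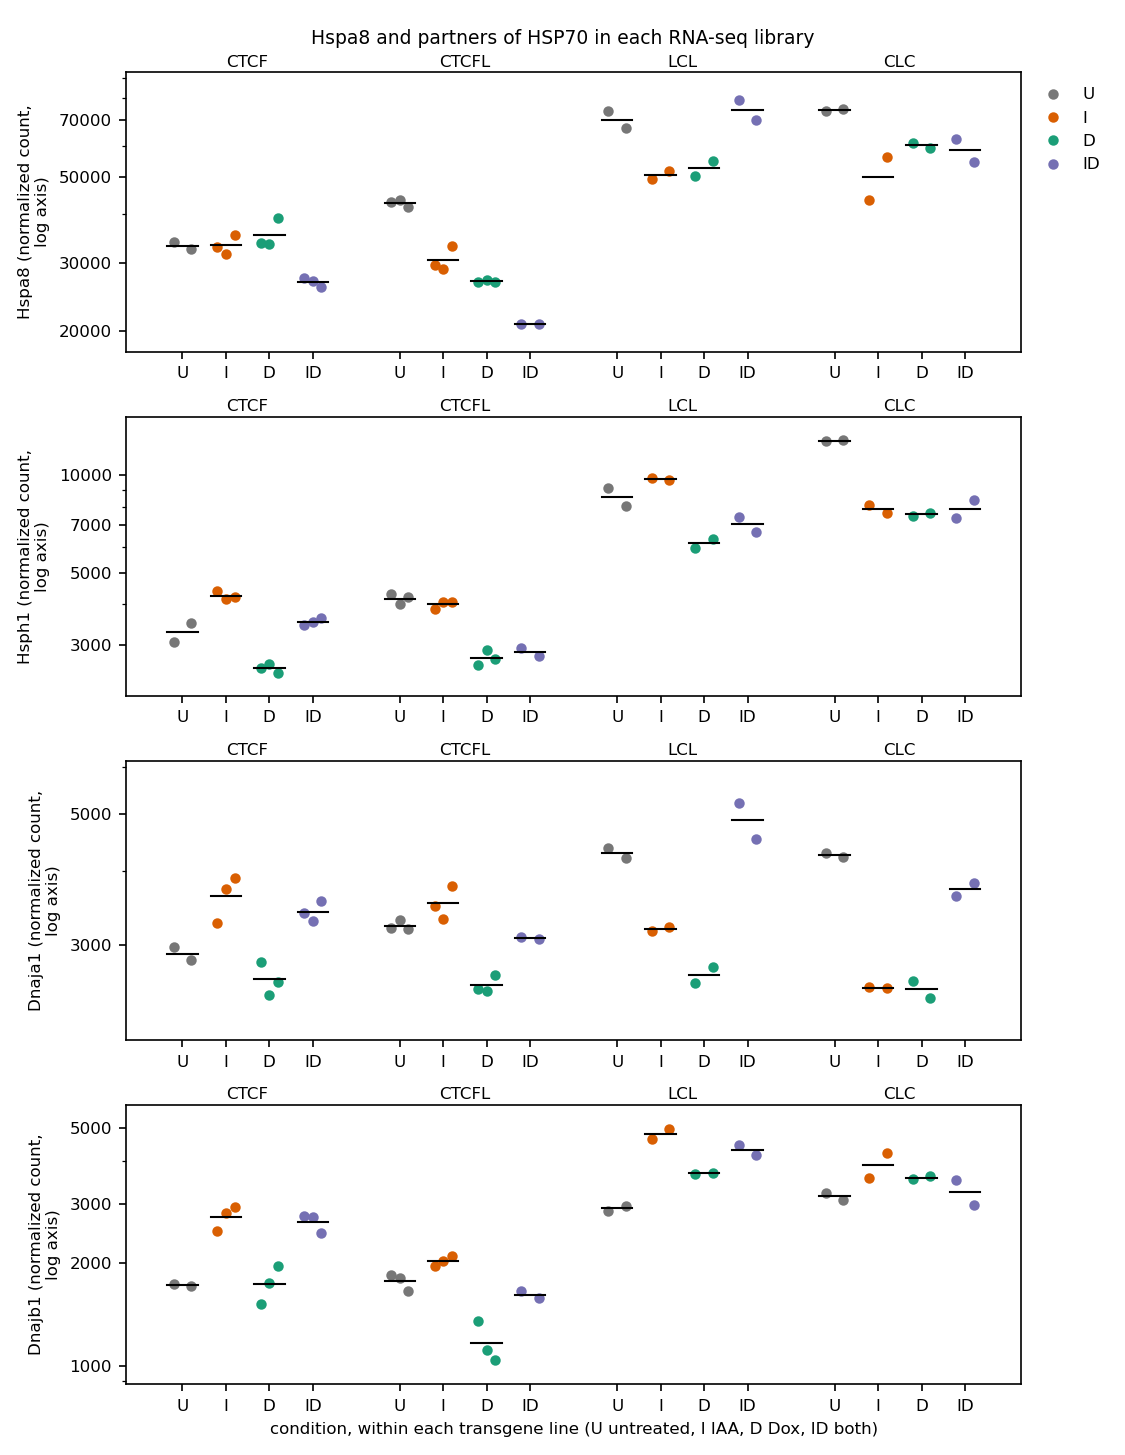
Normalized counts of Hspa8, Hsph1, Dnaja1 and Dnajb1 in each RNA-seq library on log axes, by line and condition, with points for libraries and bars for group means. Hspa8 fell in steps from U (41799 to 43691) to ID (20866 and 20926) in the CTCFL line, and Hsph1 was below U in every treated CLC library.

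Hsp90aa1 (ENSMUSG00000021270, chr12:110690605-110702728, minus strand), the stress-inducible form of HSP90, was called in the CTCFL line only. It had 149444, 142638 and 144707 normalized counts in CTCFL U, 137314, 135474 and 145380 in I, 180000.2, 187090.3 and 199089 in D, and 188704 and 190006 in ID. The libraries with Dox lay above all libraries without it. Hsp90aa1 rose 1.295-fold in D (0.37 ± 0.07, limma, adjusted p = 0.000306) and 1.301-fold in ID (0.38 ± 0.08, adjusted p = 0.000354) against U, and 1.36-fold in ID against I (0.44 ± 0.08, adjusted p = 0.000126), and these calls held whichever library was left out. In CLC, D was again the highest (234378 and 248426 against 193190 and 194953 in U), with 159488 and 160101 in I and 144375 and 143725 in ID, and ID against U was 0.43 ± 0.10 lower without passing the threshold (adjusted p = 0.0110). In the CTCF line the lowest value was 96413 in I and the highest 136692 in D, and in the LCL line the U libraries alone spanned 138725 to 180415.

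Hsp90ab1 (ENSMUSG00000023944, chr17:45567775-45573271, minus strand), the constitutive form, moved least. Over all 38 libraries it ranged from 179285 to 257395 normalized counts. Its call in CTCFL ID against U (243954 and 236409 against 203205, 195121 and 188791, a rise of 0.30 ± 0.08, limma, adjusted p = 0.00392) was the only one in 15 comparisons, and it was lost without U replicate 2 or 3 or either ID library (adjusted p between 0.0139 and 0.0476), without the low filter (0.0120), with a replicate block (0.0158), with TMM (0.0189) and with edgeR (0.0102), in which CTCFL ID was a single library.

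Hspb1 (ENSMUSG00000004951, chr5:135887919-135889563, plus strand), the small heat shock protein HSP27, holds unfolded clients without ATP. Within the CTCF line it had 1574 and 1204 normalized counts in U, 1929, 2971 and 3583 in I, 2129, 1765 and 2795 in D, and 2720, 3003 and 2859 in ID. All treated libraries were above U, with a wide spread in I and D. It rose 1.99-fold in I (0.99 ± 0.22, limma, adjusted p = 0.00253) and 2.08-fold in ID (1.05 ± 0.22, adjusted p = 0.00127), both calls being lost without U replicate 2 (0.0417 and 0.0250) and the first with the 2 groups alone (0.0151).

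Within the CTCFL line Hspb1 had 1823, 1608 and 1694 normalized counts in U, 1920, 2498 and 2218 in I, 2048, 2063 and 1948 in D, and 2871 and 2923 in ID. ID was clear of all other conditions. Hspb1 rose 1.70-fold in ID against U (0.76 ± 0.10, limma, adjusted p = 5.92e-07), whichever library was left out. The smaller rises in I against U (0.37 ± 0.09, adjusted p = 0.00148) and in ID against I (0.40 ± 0.10, adjusted p = 0.00196) were not as firm: the first was lost without U or I replicate 2 (0.0122 and 0.0193), with all lines in 1 fit (0.0797), and with edgeR (0.0451) and DESeq2 (0.0353), which also lacked I replicate 2, and the second without I replicate 1 or either ID library (0.0131 to 0.0255) and with all lines in 1 fit (0.0911).

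Within the LCL line Hspb1 had 3431 and 4837 normalized counts in U, 3328 and 3659 in I, 3388 and 2911 in D, and 4518 and 5469 in ID. U overlapped with I and ID. The rise in ID against I (0.51 ± 0.13, limma, adjusted p = 0.00292) was lost without either I library or ID replicate 2 (0.0105 to 0.0536), without the low filter (0.0182) and with all lines in 1 fit (0.0472). Within the CLC line it had 4891 and 4773 in U, 5043 and 6710 in I, 4285 and 3530 in D, and 8168 and 5911 in ID, and none of the tested comparisons passed.

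Hsf1 (ENSMUSG00000022556, chr15:76477422-76501913, plus strand), the factor that drives the heat shock response, was highest in ID in every line. It had 906.1 and 808.7 normalized counts in CTCF U and 1267, 1298 and 1315 in CTCF ID, a 1.51-fold rise (0.59 ± 0.09, limma, adjusted p = 5.68e-05). It had 1081, 1094 and 960.3 in CTCFL U and 1579 and 1354 in CTCFL ID, a 1.40-fold rise (0.49 ± 0.10, adjusted p = 0.000309) that was lost without ID replicate 1 (0.0200). In LCL it had 1017 and 1058 in U and 1261 and 1460 in ID, a 1.31-fold rise (0.39 ± 0.11, adjusted p = 0.0049) lost without either U library or ID replicate 2 (0.0125 to 0.0497) and with the 2 groups alone (0.0179).

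In CLC, ID (1252 and 1157) was also clear of U (882.2 and 928.9), but its rise of 0.41 ± 0.10 did not pass (limma, adjusted p = 0.0146). Against I, ID passed in the CTCF line only (0.34 ± 0.08, adjusted p = 0.00289), a call lost without ID replicate 2 or 3 (0.0134 and 0.0148). No comparison of I with U passed for Hsf1, with log2 differences of 0.19 to 0.25 and adjusted p between 0.0288 and 0.149. CLC D was the lowest group, with 747.9 and 756.7.

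**Figure D3:**
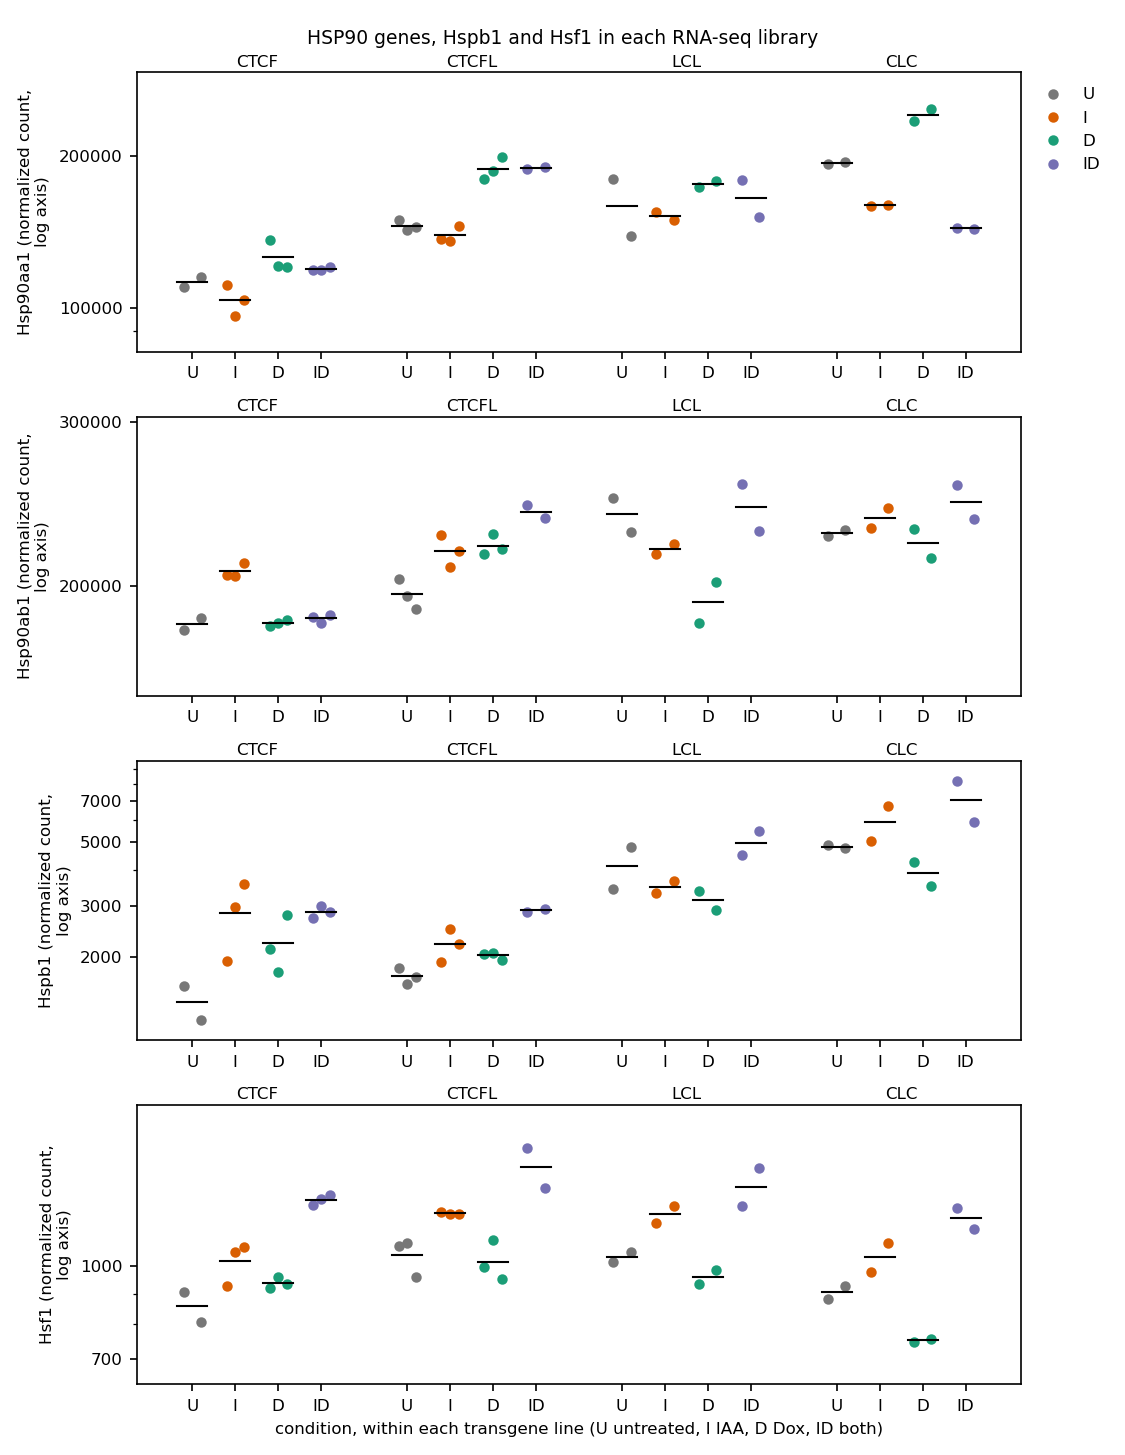
Normalized counts of Hsp90aa1, Hsp90ab1, Hspb1 and Hsf1 in each RNA-seq library on log axes, by line and condition, with points for libraries and bars for group means. Hsp90aa1 was higher in the CTCFL libraries with Dox (180000.2 to 199089) than in those without (135474 to 149444), and the mean of Hsf1 was highest in ID in all 4 lines.

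The first group of comparisons asks how these genes change with IAA alone, which is meant to remove endogenous CTCF, without Dox. No line without the degron was given IAA, so an effect of IAA itself and of the loss of CTCF cannot be told apart. In I against U, 6 of 10 genes were called in the CTCF line, all higher (Hspa1a, Hspa1b, Hsph1, Dnaja1, Dnajb1 and Hspb1), where 30.9% of the 16705 genes tested were called. Within the CTCFL line 3 were called (Hspa1b and Hspb1 higher, Hspa8 lower), against 30.3% of 16840 genes. Within the LCL line 5 were called (Hspa1a, Hspa1b and Dnajb1 higher, Hspa8 and Dnaja1 lower), against 28.4% of 15274 genes. Within the CLC line 4 were called (Hspa1a higher, Hspa8, Hsph1 and Dnaja1 lower), against 27.2% of 15337 genes. With 10 genes, 3 calls is the share that the background gives, so the counts of 3 in CTCFL and 4 in CLC are near it. With a library left out the count ranged from 2 to 5 in LCL and from 4 to 7 in CTCF.

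The next group asks what Dox does beside endogenous CTCF. In D against U, 1 gene was called in the CTCF line (Hsph1, lower), where 4.70% of all genes were called. Within the CTCFL line 6 were called (Hspa1b and Hsp90aa1 higher, Hspa8, Hsph1, Dnaja1 and Dnajb1 lower), against 24.9% of all genes, and in the LCL line 5 (Hspa1a and Dnajb1 higher, Hspa8, Hsph1 and Dnaja1 lower), against 11.3%. In CLC D against U, the comparison used to choose the genes, 1.62% of all genes were called. There the log2 differences were 2.41 for Hspa1a, 0.56 for Hspa1b, 0.31 for Hsp90aa1, 0.18 for Dnajb1, -0.04 for Hsp90ab1, -0.27 for Hsf1, -0.30 for Hspa8, -0.31 for Hspb1, and -0.76 for both Hsph1 and Dnaja1, a description from which nothing is read.

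With both treatments, ID against U, 5 genes were called in the CTCF line, all higher (Hspa1a, Hspa1b, Dnajb1, Hspb1 and Hsf1), against 40.01% of all genes. Within the CTCFL line 6 were called (Hsp90aa1, Hsp90ab1, Hspb1 and Hsf1 higher, Hspa8 and Hsph1 lower), against 45.3%. Within the LCL line 4 were called, all higher (Hspa1a, Hspa1b, Dnajb1 and Hsf1), against 37.9%, and in the CLC line 2 (Hspa1a higher, Hsph1 lower), against 16.7%. Each of these counts is within 2 genes of what the background share gives for 10 genes.

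The comparison of ID with I measures what Dox does in cells given IAA. No line without a transgene was given Dox, and Ctcf RNA was not higher in CTCF ID than in CTCF I (-0.12 ± 0.06, limma, adjusted p = 0.150), so an effect of Dox itself and of the transgene cannot be told apart. Within the CTCF line 3 genes were called (Hsf1 higher, Hspa8 and Hsph1 lower), against 25.5% of all genes, in the CTCFL line 4 (Hsp90aa1 and Hspb1 higher, Hspa8 and Hsph1 lower), against 29.7%, in the LCL line 4 (Hspa8, Dnaja1 and Hspb1 higher, Hsph1 lower), against 33.1%, and in the CLC line 1 (Dnaja1, higher), against 5.49%. Hspa1a and Hspa1b were called in none of these in the fits per line, but Hspa1b was called as lower in LCL with all lines in 1 fit (-0.48, adjusted p = 0.00967, against 0.0210 in the fit per line). Over the 15 tested comparisons, which share libraries, 59 of the 150 tests of members were called (39.3%), against 26.2% of the 241287 tests of all genes. CLC I and CLC ID against U use the U libraries of the contrast that chose the members, and without them the shares were 53 of 130 (40.8%) and 26.9%. With the fold threshold of the study as well, 12 of the 150 were called, against 8.56% of all tests, and without the CLC comparisons with U 10 of 130 (7.69%), against 8.41%.

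**Figure D4:**
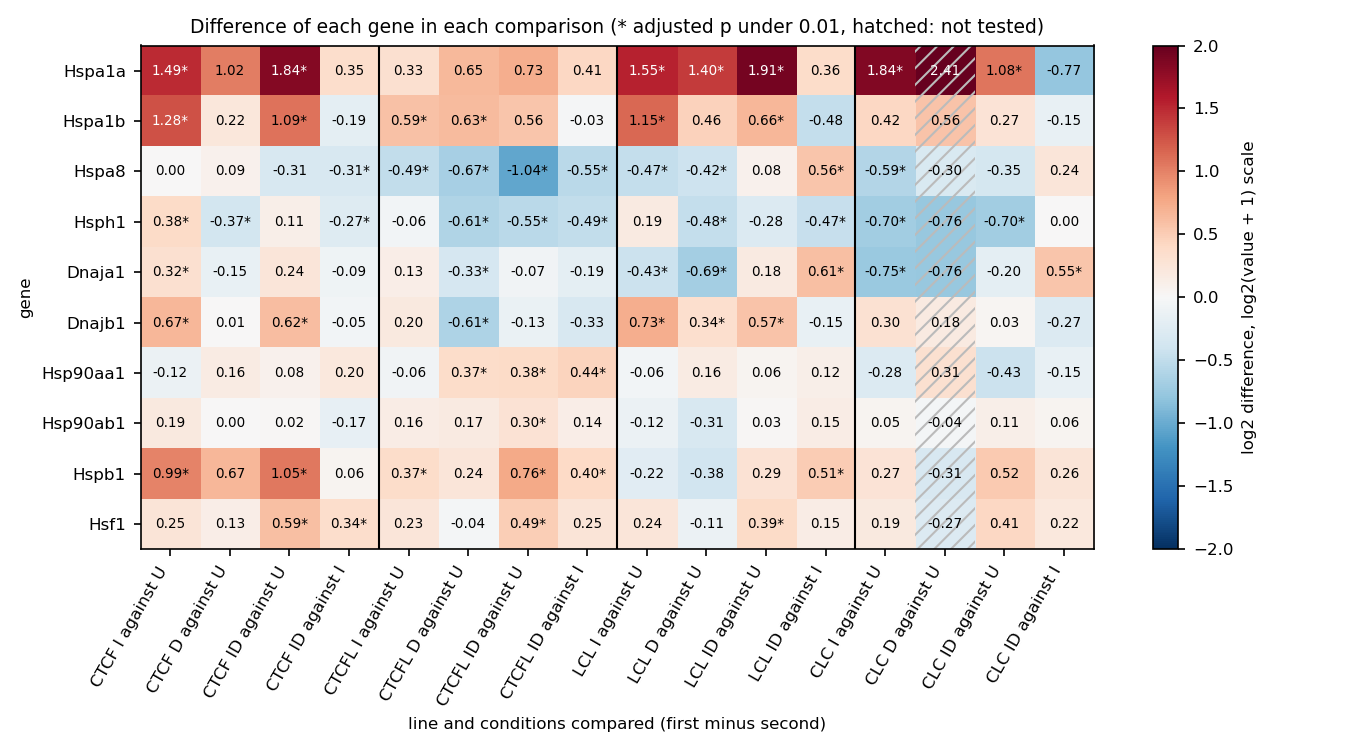
Log2 difference of each gene (rows) in each of the 16 comparisons (columns, grouped by line), as numbers and colour from -2 (blue) to 2 (red), with a star for an adjusted p under 0.01 and hatching over CLC D against U, which was not tested. Hspa1a has the strongest colour, up to 1.91 among tested comparisons (LCL ID against U), while Hspa8 and Hsph1 are mostly blue.

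The lines were compared directly in 1 fit over all 38 libraries, with the CTCF line as the reference and a call at an adjusted p under 0.01 and a difference above 1 on the log2 scale. The LCL and CLC libraries differ from the CTCF libraries in the tag 2i as well as in line. Against the CTCF line, the response to IAA (I against U) did not differ past these thresholds for any of the 10 genes in the CTCFL line, where 0.370% of 16480 genes were called. It differed for Hspb1 in the LCL line (1.83% of genes called) and for Hsph1 and Dnaja1 in the CLC line (2.93% called). The difference was -1.21 ± 0.28 for Hspb1 (limma, adjusted p = 0.00366). It was -1.08 ± 0.10 for Hsph1 (limma, adjusted p = 1.51e-08) and -1.07 ± 0.11 for Dnaja1 (adjusted p = 4.10e-08). Each rose in I in the CTCF line, a call lost in each case without at least 1 CTCF U library. In the LCL line Hspb1 was not called (-0.22 ± 0.13), and in the CLC line Hsph1 (-0.70 ± 0.09) and Dnaja1 (-0.75 ± 0.08) fell. The Hspb1 call was lost without CTCF U replicate 2, CTCF I replicate 2 or 3, LCL U replicate 2 or either LCL I library (adjusted p between 0.0101 and 0.0424, log2 difference -0.97 at the least), and Hsph1 fell under the fold threshold without CTCF U replicate 1 (-0.99). Under the fold threshold of 1, the response to IAA differed from the CTCF line for Hsph1 in CTCFL (-0.44 ± 0.09, limma, adjusted p = 0.00574) and Dnaja1 in LCL (-0.75 ± 0.11, adjusted p = 1.81e-05). In CLC it did so for Hspa1b (-0.86 ± 0.20, adjusted p = 0.00351) and Hspa8 (-0.59 ± 0.14, adjusted p = 0.00319). The response to Dox in cells given IAA (ID against I) did not differ past the thresholds for any of the 10 genes in the CTCFL (3.08% of all genes called), LCL (10.5%) or CLC (10.9%) lines. For Hspa8 that difference had an adjusted p of 4.01e-06 in LCL (0.87 ± 0.13) and 0.00126 in CLC (0.55 ± 0.13), and for Dnaja1 4.13e-06 in LCL (0.69 ± 0.10) and 1.43e-05 in CLC (0.64 ± 0.10), both under the fold threshold of 1.

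The other chaperone and stress genes were taken from lists chosen with earlier results of these data known. Over the 15 tested comparisons 63335 of 241287 tests of all genes passed, or 26.2%, beside which the lists are read. Of the NRF2 targets, which answer oxidative stress, 68 of 120 tests passed, 60 of them as higher. In CTCFL ID against U, where 45.3% of all genes were called, 7 of 8 were higher. The gene with the lowest adjusted p was Nqo1, a quinone reductase, with 398.6-484.2 normalized counts in CTCFL U and 1854 and 2009 in ID (2.11 ± 0.11, limma, adjusted p = 3.80e-13). Srxn1, a sulfiredoxin, went from 1219-1316 in CTCFL U to 2985-3118 in I (1.26 ± 0.08, adjusted p = 4.09e-11).

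Of the genes of the unfolded protein response of the endoplasmic reticulum, 84 of 240 tests passed (56 higher, 28 lower). In CTCFL D against U, where 24.9% of all genes were called, 10 of 16 were higher and none lower. In CTCFL I against U 5 were lower and 1 higher, a count near the share of all genes called there (30.3%). The gene with the lowest adjusted p was Ddit3 (CHOP), a transcription factor of this response, with 519.8-657.1 normalized counts in CTCFL U and 2678-3041 in D (2.21 ± 0.09, limma, adjusted p = 3.39e-13), and the other was Atf4, its upstream regulator, with 3547 and 4147 in LCL I and 10083 and 11436 in ID (1.49 ± 0.09, adjusted p = 3.19e-10).

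Of the co-chaperones of HSP90 and HSP70, 63 of 285 tests passed (37 higher, 26 lower). In CTCFL D against U, where 24.9% of all genes were called, 7 of 19 were lower and 4 higher. At the lowest adjusted p were Chordc1 (2247-2487 normalized counts in U and 1411-1461 in D, where it fell by 0.75 ± 0.07, limma, adjusted p = 6.44e-08) and Bag5 (639.6-748.1 and 310.8-340.8, where it fell by 1.08 ± 0.11, adjusted p = 1.05e-07). In LCL ID against I, where 33.1% of all genes were called, 9 of 19 were higher and 1 lower. Of the TRiC subunits, which fold actin and tubulin, 34 of 120 tests passed, of which 18 were higher and 16 lower. In LCL ID against I 6 of 8 were higher, and in CLC I against U, where 27.2% of all genes were called, 5 of 8 were lower. Cct7 went from 17164-19032 in CTCFL I to 24537-26739 in ID (0.51 ± 0.07, adjusted p = 7.04e-06) and Cct5 from 15414-16463 to 20561-20864 (0.39 ± 0.07, adjusted p = 5.39e-05).

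Other J-domain genes passed in 85 of 210 tests (33 higher, 52 lower). Dnajc6, an auxilin that works with Hspa8 on clathrin coats, had 589.0 to 670.0 normalized counts in CTCFL U and 26.2 and 55.3 in ID, and fell by 3.99 ± 0.26 (limma, adjusted p = 2.00e-11). Dnajc21 fell by 0.68 ± 0.07 in the same comparison (4349-4637 to 2788-2815, adjusted p = 7.16e-08). Other HSP70 and HSP110 genes passed in 30 of 124 tests, led by Hspa2 (380.8 and 457.5 in LCL U, 976.3 and 986.6 in I, 1.23 ± 0.13, adjusted p = 2.73e-07) and Hspa4l (763.9-922.0 in CTCFL U, 1207-1397 in D, 0.65 ± 0.09, adjusted p = 1.23e-05).

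Mitochondrial chaperones passed in 28 of 105 tests, led by Hspe1, the lid of the mitochondrial chaperonin (7373 and 8332 normalized counts in LCL I, 12810.0 and 15455 in ID, 0.84 ± 0.10, limma, adjusted p = 1.18e-06), and Trap1 (4767-5097 in CTCFL I, 6963 and 7396 in ID, 0.53 ± 0.07, adjusted p = 2.95e-06). Other small heat shock proteins passed in 30 of 105, led by Hspb8 (3647 and 3802 in LCL U, 9245 and 9938 in ID, 1.36 ± 0.08, adjusted p = 1.53e-10). Hspb8 went the other way in the CTCFL line, from 2227-2603 in U to 1076 and 1088 in ID, where it fell by 1.14 ± 0.09 (limma, adjusted p = 2.29e-10). The other gene was Hspb6 (151.0-182.9 in CTCF I, 382.9-413.0 in ID, 1.26 ± 0.10, adjusted p = 1.09e-06), which had fallen by 1.11 ± 0.11 in I from 359.5-367.9 in U (limma, adjusted p = 3.84e-06) and in ID against U was at 0.14 ± 0.11 (adjusted p = 0.299). The other HSF genes and Hsbp1 passed in 11 of 64, led by Hsbp1, which encodes a protein that binds HSF1 (2562 and 2563 in LCL U, 3583 and 3929 in ID, 0.55 ± 0.09, adjusted p = 4.15e-05), and Hsf5 (107.2 and 124.6 in LCL I, 36.5 and 40.96 in ID, where it fell by 1.55 ± 0.34, adjusted p = 0.000941).

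Likeness of pattern was measured over the 38 libraries, with log2 values set relative to the untreated mean of the line, among 14396 genes with a mean of at least 10 in every line. The 5 genes most like Hspa1a were Sct (Pearson r = 0.85), Fabp3 (0.84), Gstm5 (0.81), the Fabp3-ps1 pseudogene (0.80) and Map1lc3a (0.79). Hspa1b came at place 319 (r = 0.62) and Dnajb1 at place 607 (r = 0.57), and the values with Hspa8 (-0.13), Hsph1 (-0.23) and Dnaja1 (-0.30) were below 0. The 5 genes most like Hspa8 were Eif4e2 (0.92), Aifm1 (0.89), Map6 (0.86), Gm33027 (0.86) and Gm14820 (0.85). Among the 10 genes, the pairs with the highest r were Hspb1 with Hsf1 (0.73), Hsph1 with Dnaja1 (0.70) and Hspa1a with Hspa1b (0.62). The libraries share clones and depths, so these values are descriptions.

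The study also mapped the FLAG-tagged transgenes and the cohesin subunit RAD21 by ChIP-seq. A gene was counted as having a peak where peaks of both replicates overlapped and the middle of the merged peak lay near a start site. The limit was 3 kb from the start of any annotated transcript of the gene, also one inside it. For FLAG, 2 of the 10 genes had one in CTCF D (38.1% of the 17439 genes tested in the RNA-seq), 2 in CTCF ID (29.9%), 5 in CTCFL D (41.9%), 3 in CTCFL ID (39.5%), 2 in LCL D (39.2%), 4 in LCL ID (50.2%), 1 in CLC D (9.51%) and 2 in CLC ID (26.3%). CLL and LLC were mapped after 48 h by their labels, against 24 h for the groups above, and are not compared with them. They gave 0 in CLL D (1.07%), 2 in CLL ID (18.9%), and 0 in LLC D (1.61%) and LLC ID (5.28%). None of the 10 genes had a RAD21 peak by this rule, which 0.143% to 3.16% of tested genes did, with 121 to 3455 merged peaks per group.

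Hsp90aa1 had a FLAG peak in 9 of the 12 groups, with its middle 278 to 506 bp upstream of the start site. These were all the CTCF, CTCFL, LCL and CLC groups, at 24 h, and CLL ID, at 48 h. CLL D, LLC D and LLC ID had none, but these groups had only 1913, 3309 and 6629 merged peaks. Its -log10 q was highest in CTCF ID (121, fold enrichment 15.0) and lowest in CLC D (12.03, fold enrichment 5.23). The bases around the summit in CTCF ID replicate 1 are shown because this is the strongest peak at any of the 10 genes. The summit lay 395 bp upstream of the start site, and capitals mark a match to AGGNGGC, the core of the CTCF motif, here on the minus strand (GCCNCCT), which 24.9% of the 41384 peaks of that replicate held within the same distance of their summit.
Hsp90aa1 summit, chr12:110703063-110703183, plus strand (GRCm38.p6): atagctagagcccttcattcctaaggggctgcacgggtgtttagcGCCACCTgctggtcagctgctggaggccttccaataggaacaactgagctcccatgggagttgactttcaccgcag

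Hspa8 had a peak in 8 of the 12 FLAG groups. The nearest one lay in an intron, 941 to 975 bp from an annotated start site, in CTCF ID (chr9:40805187-40805732, -log10 q of 37.8), CTCFL D and ID, CLC ID and CLL ID (48 h). That start site belongs to a transcript inside the gene, as these peaks lie more than 3 kb past its first base (chr9:40800984). In CTCF D, LCL D and LCL ID the nearest lay in an exon within 63 bp of a start site (-log10 q of 6.73 to 12.6). Only the nearest peak of a group was taken, so these groups may hold the intron peak too. Hspb1 had a weak upstream peak in CTCFL D, CTCFL ID and LCL ID (-log10 q of 3.13 to 7.18). Dnaja1 (8.58) and Hsp90ab1 (11.1) had one in CTCFL D only, and Dnajb1 (10.5) in LCL ID only. Hspa1a, Hspa1b, Hsph1 and Hsf1 had none. The authors kept uniquely mapped reads, and the promoters of Hspa1a and Hspa1b are nearly identical over 250 bases, so the absence of a listed peak there is not a measure of binding.

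**Figure D5:**
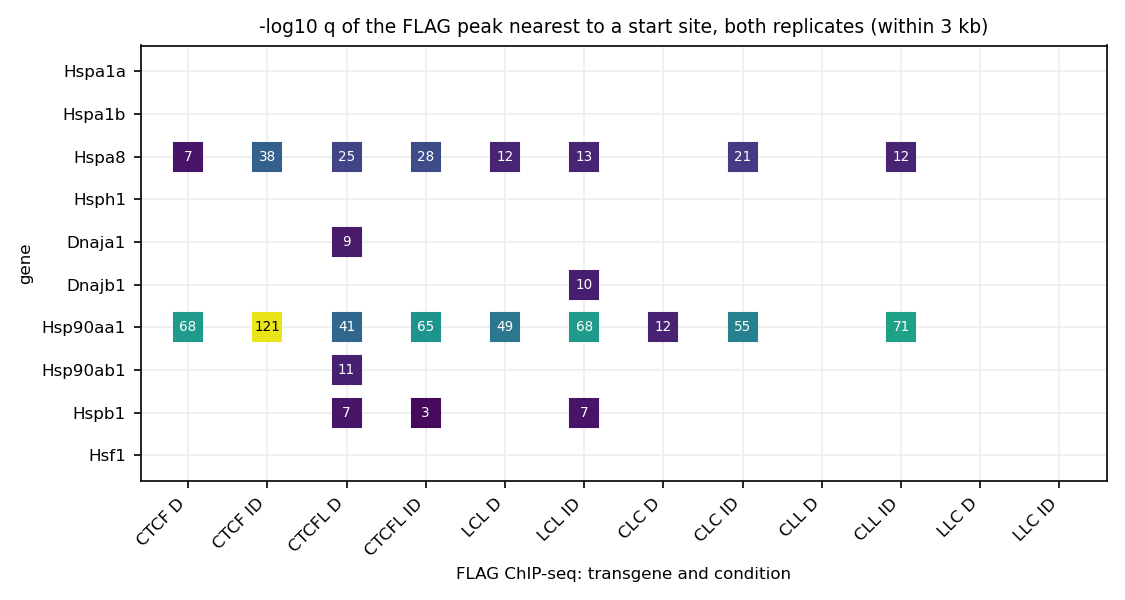
The -log10 q of the FLAG ChIP-seq peak nearest to a start site (within 3 kb, the highest value among the merged peaks of both replicates) for each of the 10 genes (rows) in each of 12 groups of transgene and condition (columns), as a number and colour, with no mark where no peak was listed. Hsp90aa1 is marked in 9 groups with values from 12.03 to 121, and Hspa1a, Hspa1b, Hsph1 and Hsf1 in none. The CLL and LLC groups were mapped after 48 h and the others after 24 h.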

How the data were processed

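Poly(A)-selected RNA was sequenced as directional paired-end libraries, and STAR v2.6 was used by the authors for alignment to GRCm38/mm10. The deposited signal values are counts per gene scaled by the authors with a size factor for each library. The submitters' processing notes name HTSeq, without saying what for. Values of up to 500 reads were whole multiples of a step (within 0.1) in 36 libraries, which gave back the reads. CTCFL I and ID replicate 2 gave none and stayed out of the tests on reads, which leaves CTCFL ID with 1 library there.

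For each line, limma 3.58.1 (R 4.3.3, eBayes with trend) was fitted to log2(value + 1) of all genes with a mean of at least 10, over U, I, D and ID together. Calls are at a Benjamini-Hochberg adjusted p under 0.01 across the genes tested. The log2 scale with its pseudocount understates the change of low genes such as Hspa1a. Alternatives were a pseudocount of 5, a minimum of 50 or none, TMM, the 2 groups alone, all lines in 1 fit, a replicate block, the study's fold threshold, and edgeR 4.0.16 or DESeq2 1.42.0 on the reads. Each library was also left out in turn. The fits were tested on simulated data.

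The members and lists were chosen with earlier results of these data known. Named genes were the 10 members, the 2 called genes of each list with the lowest adjusted p, the 5 genes most like Hspa1a and Hspa8, and Ctcf and Ctcfl.

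Peaks were called by the authors with MACS in each replicate from uniquely mapped reads, with a -log10 q and a fold enrichment (a ratio) for each peak. For a merged peak the highest -log10 q and the highest fold enrichment among its peaks in both replicates are printed, each taken separately. Gene models are GENCODE vM21. RNase-treated, mock-treated and IgG ChIP and Hi-C data were not used here.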

Additional observations from a re-analysis of the deposited data

Results flagged for a closer look

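The response to IAA (I against U) differed between lines past both thresholds for 3 of the 10 genes, by an interaction contrast in 1 limma fit over all lines. Hspb1 differed between the LCL and CTCF lines by -1.21 ± 0.28 on the log2 scale (limma, adjusted p = 0.00366): it was 0.99 higher in I than in U in the CTCF line and -0.22 in the LCL line. Hsph1 differed between the CLC and CTCF lines by -1.08 ± 0.10 (adjusted p = 1.51e-08), with 0.38 in the CTCF line and -0.70 in the CLC line. Dnaja1 differed between the same lines by -1.07 ± 0.11 (adjusted p = 4.10e-08), with 0.32 and -0.75. Each line was a selected clone and the LCL and CLC libraries hold the tag 2i, so clone, transgene and tag cannot be told apart. No Dox was given in U or I. Ctcfl was nevertheless higher in I than in U in the CLC line (0.95 ± 0.15, limma, adjusted p = 0.00139) and lower in the CTCF line (-1.56 ± 0.20, adjusted p = 4.25e-05). The part of this in the differences was not tested.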

How the results depend on the processing

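Of the 59 calls of single genes, 30 were kept both in every run that left out a library and under every other setting but the study's fold threshold, and none changed sign. In edgeR and DESeq2 CTCFL ID rested on 1 library, assumed to vary like the other groups. With that threshold, which no difference under 1 can pass, the calls in I, D and ID against U and in ID against I were 2, 0, 3 and 0 in the CTCF line, 0, 0, 1 and 0 in the CTCFL line, and 2, 1, 1 and 0 in the LCL line. In the CLC line they were 1 in I, 1 in ID against U and 0 in ID against I. The cause of the other changes was not tested. Without the low filter 0 genes were called in CTCF D against U, 1 in CTCF ID against I, 3 in LCL I, 2 in LCL D and 1 in CLC ID against U, and 0 in the LCL to CTCF difference in I. With the 2 groups alone there were 3 in CTCF I, 0 in CTCF D, 3 in LCL D and 0 in CLC ID against I. In CLC ID against U there were 5 with all lines in 1 fit and 4 with DESeq2, which gave 2 in CTCF D.

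With a replicate block there were 0 calls in CTCF D against U, 1 in CTCF ID against I, 1 in CLC ID against U, 0 in CLC ID against I and 0 in the LCL to CTCF difference in I. Same-numbered libraries did not deviate together (r from -0.30 to 0.16), so the paired fit is no better founded.

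Leaving out a library gave 4 to 7 calls in I, 0 to 1 in D and 4 to 5 in ID against U and 0 to 2 in ID against I in the CTCF line. The same ranges were 1 to 3, 5 to 6, 4 to 7 and 3 to 4 in the CTCFL line and 2 to 5, 1 to 4, 2 to 5 and 2 to 4 in the LCL line. In the CLC line they were 3 to 4 in I, 0 to 1 in ID against U and 0 to 1 in ID against I. The differences in I ranged from 0 to 1 for LCL and from 1 to 2 for CLC. Hspa1b in CTCFL ID against I (-0.03, not called) ranged from -0.138 to 0.048 and was 0.0812 with the Hspa1 pair summed, whose sum was also -0.0399 in CTCF and -0.356 in LCL ID against I, where Hspa1a alone was above 0.

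For FLAG in CTCFL D, 8 genes had a peak in replicate 1 alone and 3 at a -log10 q of at least 5. Replicate 2 alone gave 1 in CLL D and 1 in LLC ID. For RAD21, replicate 1 alone gave 1 in CTCF D, 1 in CTCFL D and 2 in LCL ID, and replicate 2 alone 3 in LCL D and 4 in CLC D. Depth limits Hspa1a most, with 14 reads in its lowest library.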
